A study of Drosophila melanogaster with 4 samples.

Results

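The mid-sized domains of the histone mark H3K27me3 were followed over chromosome arms 2L, 3L and 3R in heads of adult Drosophila melanogaster. Enriched regions that the authors called for the series as a whole were joined where the gap between them was under 5000 bp, and joined domains from 10000 bp to under 40000 bp wide were kept. This gave 471 mid-sized domains of 1653 joined domains on the 3 arms, or 28.5%. Over all sequences of the genome the same joining gave 3032 domains. Of the others on the 3 arms, 247 were wide domains of 40000 bp or more and 935 were small domains under 10000 bp. The members were chosen by their width in the called regions, so every value of these calls describes them and none was tested.

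The material was nuclei from the heads of wild-type Oregon-R flies, labelled as mixed adults, which were kept in population cages over a 22-day cycle and had their heads separated from the bodies with sieves. H3K27me3 ChIP was done in 2 replicates with an Abcam antibody of lot 3 on formaldehyde-fixed chromatin, and each replicate had an input library of its own. All 4 libraries came from the same genotype, so the design held no treated or mutant flies. Whether each replicate had its own fly collection is not in the labels, so their spread may be technical. The files hold no expression values, so the labelled tissue could not be checked against marker genes.

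H3K27me3 is the trimethylated form of lysine 27 of histone H3, written by the Polycomb repressive complex PRC2. In flies it spreads over broad domains that cover silenced developmental genes, many of them for transcription factors, and Polycomb proteins bind within these domains at Polycomb response elements. A head holds neurons, glia, photoreceptors, muscle, fat body and cuticle cells, so a call in head nuclei is an average over cell types that may differ in the mark.

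Replicate 1 had 3279 called regions on the 3 arms with 18.7 Mb, replicate 2 had 6556 with 26.1 Mb, and the whole-series list had 6610 with 29.7 Mb. The inputs had no list and entered through the authors' calling. The lists give no read numbers, and library depth is unknown. The whole-series list came from the same libraries, and its overlap with each replicate is not independent support. Positions are on FlyBase release 5, per the file headers. The gene table at hand is of another release, and genes and sequences were therefore not assigned to the domains.

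Mid-sized domains were a numerous but minor part of the marked sequence. They spanned 9.52 Mb, or 12.6% of the 3 arms, against 23.3 Mb for wide domains and 3.35 Mb for small ones. That was 26.3% of the span of all joined domains. Within this span 6.75 Mb was called, in 2300 regions, which was 22.7% of the called length on these arms.

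Most of the members lay at the narrow end of the range. Their median width was 17773 bp, with quartiles of 13354.5 and 25382.5 bp. A width under 20000 bp was found for 276 members, 108 were from 20000 to under 30000 bp wide, and 87 were 30000 bp or wider. The narrowest was the 10002 bp domain at 22049135 to 22059136 on 3R, and the widest the 39925 bp domain at 15999005 to 16038929 on 3R. The scores of these members next to the limits were 0.41 and 0.39. Just outside the lower limit lay a domain of 9954 bp at 13445988 to 13455941 on 3L with a score of 0.53. Just outside the upper limit lay a domain of 40014 bp at 13815209 to 13855222 on 3L with a score of 0.65.

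A typical mid-sized domain was a string of short calls rather than a continuous block. The median number of called regions in a domain, its pieces, was 5, with quartiles of 3 and 6 and a range of 1 to 13. Only 26 members were a single uninterrupted region, 208 had 2 to 4 pieces, 237 had 5 or more and 27 had 10 or more. Wide domains had a median of 11 pieces and small domains of 1. Pieces had a median width of 1896 bp and gaps between them of 1130 bp. The widest piece took up under 50% of the domain in 401 members, or 85.1%.

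The called share of a domain from its first to its last base had a median of 69.2% in mid-sized domains, against 87.2% in wide ones. It ran from 33.5% to 100% among the members. At least 95% was called in 50 members and under 50% in 57. The lowest share belonged to the domain at 8336417 to 8350149 on 2L, which had 3 pieces over 13733 bp. Replicate 1 did not touch that domain, and replicate 2 covered 20.5% of it. Its gaps summed to more than its pieces did.

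Among the 445 members of more than 1 piece, the widest piece stood out from the others. It had a median width of 4318 bp, against 1715 bp for the other pieces of these domains. Its median score was 0.53, and its score was above the median of the other pieces of the domain in 358 of the 445 members. Replicate 1 touched 58.9% of these widest pieces, against 24.8% of the others. In replicate 2 the same shares were 97.5% and 69.2%. A longer piece has more bases that a call can touch, so these shares are not independent of width. Position in the domain went with smaller differences. Outer pieces had a median score of 0.43 and inner pieces of 0.42. Replicate 1 touched 31.3% of outer and 31.6% of inner pieces, and replicate 2 touched 78.9% and 72.0%.

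The score of a domain was taken as the mean score of its pieces weighted by their length. The authors deposited the scores without a scale in the sources used here, so they serve to rank domains within a list. The median score was 0.48 in mid-sized domains, against 0.71 in wide and 0.41 in small domains. The members had quartiles of 0.41 and 0.58, a lowest value of 0.20 and a highest of 2.23. A score under 0.6 was found in 366 members, 67 had 0.6 to under 1, and 38 had 1 or more. Scores of 1 or more thus made up 8.07% of members, near the 8.05% of all joined domains, which include the members. The share was 32.0% in wide and 1.71% in small domains, so high scores were not particular to mid-sized domains. Scores under 0.6 made up 77.7% of members, 79.7% of all joined domains, 38.9% of wide and 91.6% of small ones. The limit of 1 was set after the values were seen.

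Replicate 2 covered most members more fully than replicate 1 did. The share of a domain called in replicate 1 had a median of 16.8%, with quartiles of 0% and 39.5%. In replicate 2 the median was 56.2%, with quartiles of 40.3% and 73.0%. The median difference, replicate 1 minus replicate 2, was -31.3 percentage points. Replicate 2 was higher by 10 points or more in 364 members, the replicates lay within 10 points in 80, and replicate 1 was higher by 10 points or more in 27. Wide domains had medians of 61.6% in replicate 1 and 74.9% in replicate 2, and small domains of 0% and 85.3%.

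**Figure D1:**
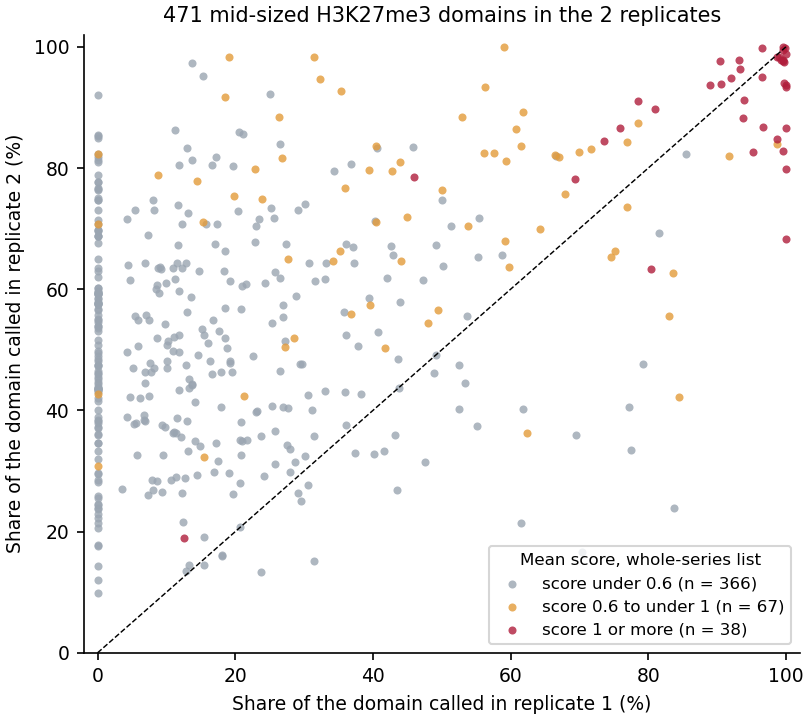
Share of each mid-sized domain called in replicate 1 (x axis, percent) and in replicate 2 (y axis, percent), 1 point per domain, coloured by its score in the whole-series list, with the line of equal shares dashed. The column of points at 0 on the x axis holds the 121 members without a call in replicate 1, and most of the 38 members with a score of 1 or more stand in the upper right corner.

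Replicate 1 touched 350 of the 471 members by at least 1 bp, or 74.3% (95% exact Clopper-Pearson interval 70.1% to 78.2%), against 45.4% of all joined domains on the 3 arms. Replicate 2 touched all 471 members, for which the interval starts at 99.2%, against 90.7% of all joined domains. Coverage of at least 50% in replicate 1 was found for 87 members, or 18.5%, near the 19.3% of all joined domains. The shares of all joined domains average over unlike width classes. In replicate 1 this coverage was reached by 63.0%, 54.4% and 63.3% of wide domains on 2L, 3L and 3R. Among small domains it was 8.79%, 8.36% and 9.21%. In replicate 1 the members thus lay between the other 2 classes. Replicate 2 covered at least 50% of 277 members, or 58.8%, against 69.7% of all. It did so for 84.0%, 80.9% and 92.9% of wide domains on 2L, 3L and 3R. Among small domains it was 68.1%, 69.5% and 74.3%, so in replicate 2 the members were the lowest of the 3 classes. Both replicates covered at least 50% in 73 members, or 15.5% (12.3% to 19.1%), against 16.5% of all. This share depended on the joining distance: it was 55.3% among the 492 mid-sized domains obtained with gaps under 1000 bp, and 9.24% among the 314 obtained with gaps under 10000 bp.

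The called pieces themselves had more support than whole domains, which include the gaps. Of the 6.75 Mb in pieces, replicate 1 called 39.4%, replicate 2 called 78.4%, both called 32.5% and neither called 14.7%. In wide domains the pieces were called to 75.3% in replicate 1 and 85.7% in replicate 2. The gaps of mid-sized domains summed to 2.78 Mb, of which replicate 1 called 2.84%, replicate 2 called 7.08% and both called 0.020%. Sequence that the whole-series list left out between pieces was called in both replicates almost nowhere. That list came from the same libraries, so this low share is not independent of how the list was made.

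Support in the replicates followed the score step by step. In the 95 members with a score under 0.4, the median share was 8.58% in replicate 1 and 41.6% in replicate 2. In the 177 members from 0.4 to under 0.5 it was 9.73% and 49.7%. In the 94 members from 0.5 to under 0.6 it was 20.7% and 63.7%. These lower classes held 10 of the 73 domains covered by at least 50% in both replicates, namely 0, 2 and 8 from the lowest class up. In the 67 members from 0.6 to under 1 the medians were 44.2% in replicate 1 and 76.5% in replicate 2, and 27 reached 50% in both. In the 38 members of 1 or more they were 96.6% and 93.7%, and 36 reached 50% in both. Members without any call in replicate 1 numbered 39, 61, 17, 4 and 0 from the lowest score class to the highest. Across the 471 members the Spearman rho of score with coverage was 0.58 for replicate 1 and 0.64 for replicate 2, where score and coverage rest on the same libraries.

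The scores that each replicate gave its own calls also went together. Among the 350 members called in both lists, the replicates' mean scores had a Spearman rho of 0.53 and a Pearson r of 0.87, over neighbouring domains in the same 2 libraries. Coverage in replicate 1 and in replicate 2 had a rho of 0.36 over the 471 members.

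The 38 members with a score of 1 or more differed in make-up from the other 433. Their median width was 23134 bp, against 17531 bp in the rest. They had a median of 1 piece against 5, and a median called share of 100% against 67.7%. Of the 26 members in a single piece, 22 were among the 38. Every one of the 21 members covered by at least 90% in both replicates was among them. They made up 0.882 Mb, or 9.26% of the span of mid-sized domains. These contrasts are between classes cut from the score itself and are given as a description.

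The highest score of all members was 2.23, at 17313722 to 17346192 on 3R, in a single piece of 32471 bp. Replicate 1 covered 100% of it with a score of 2.20, and replicate 2 covered 98.9% with a score of 2.28. Each replicate called this domain in a single piece, and a wide domain of 48900 bp lay 5345 bp away.

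The domain at 9576367 to 9613159 on 2L came next with a score of 2.16, and at 36793 bp it was also the widest member in a single piece. Coverage was 99.5% in replicate 1 and 99.99% in replicate 2. It stood apart from wide domains, the nearest of which was 191349 bp away. The domain at 13371750 to 13402147 on 3R had a score of 2.10, with 99.9% called in replicate 1 and 99.8% in replicate 2. All 3 leading members were thus called almost base for base in each replicate.

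High scores were found at widths from 10333 to 36793 bp, but more often at the wide end. A score of 1 or more was found in 17 of 276 members under 20000 bp, or 6.16%. It was found in 7 of 108 members from 20000 to under 30000 bp, or 6.48%, and in 14 of 87 from 30000 bp, or 16.1%. The domain at 719557 to 731762 on 3R was 12206 bp wide with a score of 2.04, covered to 98.7% in replicate 1 and 84.8% in replicate 2. The domain at 6527100 to 6557651 on 2L had a score of 2.03, with 99.5% called in both replicates. On 3L the highest score was 1.76, at 6089082 to 6122293, with 89.0% called in replicate 1 and 93.6% in replicate 2. The narrowest member with a score of 1 or more was the 10333 bp domain at 10346261 to 10356593 on 2L. Its score was 1.09, with 92.1% and 94.9% called in replicates 1 and 2. Over all 471 members width went weakly with the score, at a Spearman rho of 0.15.

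**Figure D2:**
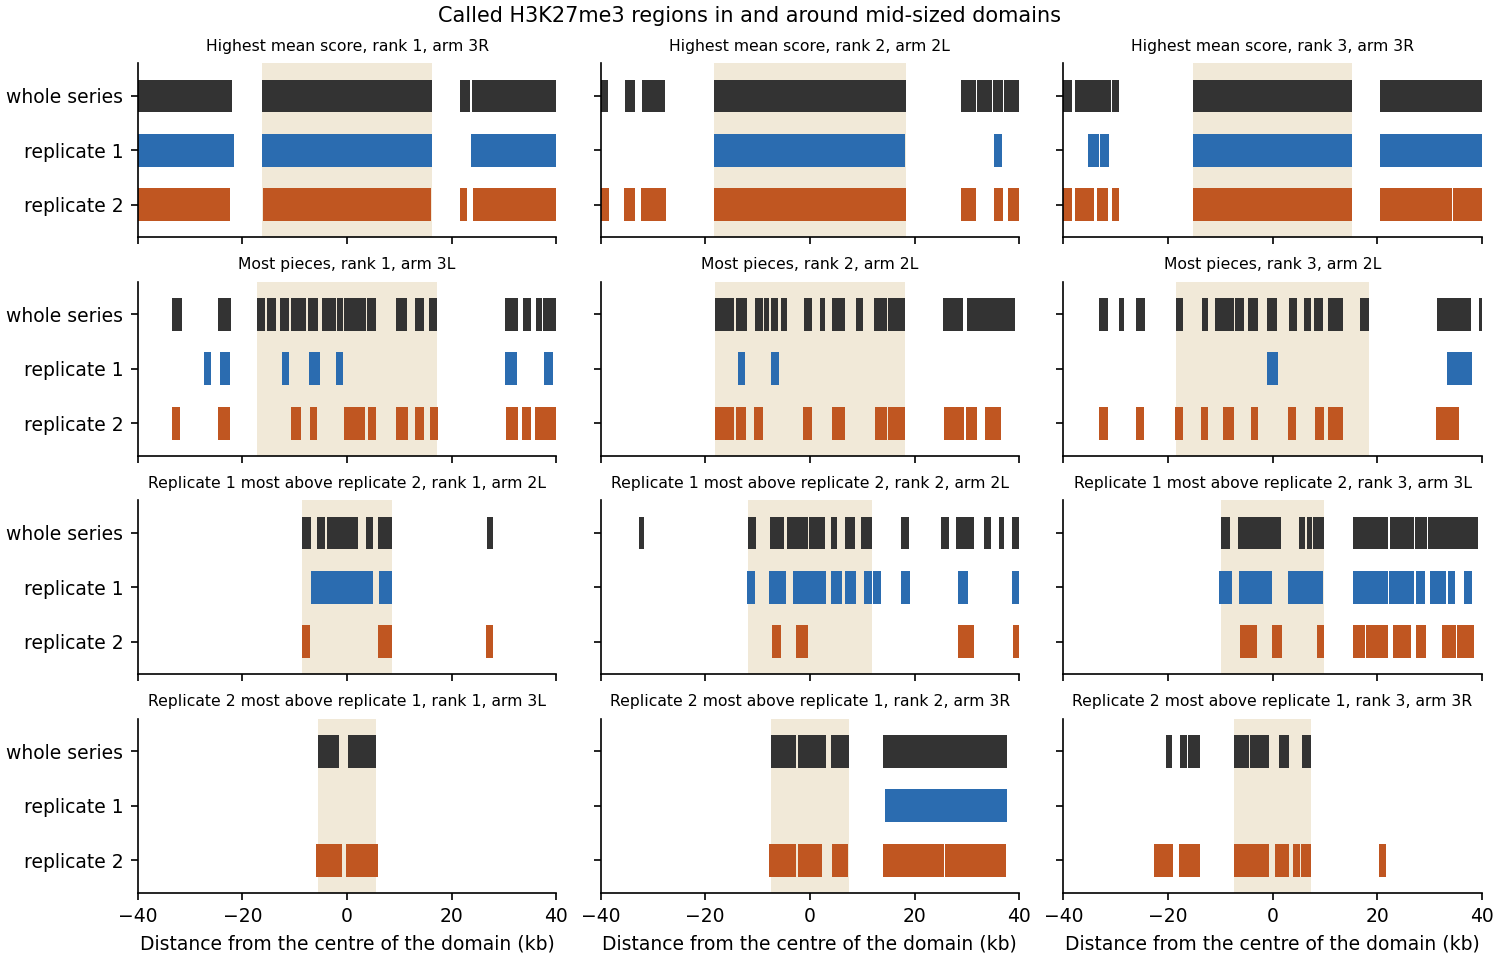
Called regions (filled blocks) of the whole-series list, replicate 1 and replicate 2 around the centre of 12 mid-sized domains (x axis, distance in kb), with the joined domain shaded. The top row shows single blocks called alike in all 3 lists, the second row strings of 12 or 13 short pieces, and the lower rows domains called mostly in replicate 1 or only in replicate 2.

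Most of the 38 were covered more fully in the shorter list, that of replicate 1. Replicate 1 covered 23 of them more than replicate 2 did, or 60.5%, against 40 of the 433 others, or 9.24%. The median share was 96.6% in replicate 1 and 93.7% in replicate 2. An example is the domain at 7213270 to 7232717 on 3R, of which replicate 1 covered 100% and replicate 2 covered 68.2%. Another is the domain at 7931009 to 7963258 on 3L, covered to 99.6% in replicate 1, as a single piece, and to 82.8% in replicate 2, in 4 pieces.

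The score and the replicates went against each other in a few members. The domain at 12908483 to 12919111 on 3L had a score of 1.01 from a piece of 3.15, the highest score of any single piece in the mid-sized domains. Its pieces filled 41.4% of its 10629 bp, replicate 1 covered 12.5% and replicate 2 covered 19.0%. The mean scores there were 0.72 in replicate 1 and 0.60 in replicate 2, and neither replicate had a call of such a score in the domain. At 20598666 to 20626194 on 3R, with a score of 1.39, replicate 1 covered 46.0% and replicate 2 covered 78.5%. These were the only members with a score of 1 or more that fell under 50% in a replicate.

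The opposite case, a low score with good coverage, was found in 2 of the 272 members with a score under 0.5. The domain at 5895170 to 5906714 on 2L had a score just under 0.50, and 51.4% was called in replicate 1 and 70.4% in replicate 2. The domain at 14960233 to 14971353 on 3L had a score of 0.43, with 53.7% called in replicate 1 and 55.7% in replicate 2. Of the 4 single-piece members with a score under 1, replicate 1 covered 31.4% of the domain at 16851740 to 16868528 on 3R, in 3 pieces, and replicate 2 covered 98.2%.

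The members with the lowest scores and those with the lowest coverage in replicate 2 were partly different domains. The lowest score, 0.20, was that of the domain at 17949794 to 17960772 on 2L, with no call in replicate 1 and 14.3% in replicate 2. The domain at 9406735 to 9417212 on 2L had a score of 0.22, with 12.8% called in replicate 1 and 13.4% in replicate 2. The next lowest score, 0.28, was at 17152757 to 17163065 on 2L, where replicate 1 called 17.2% and replicate 2 called 34.6%. The lowest share in replicate 2, 9.86%, was at 3381019 to 3396261 on 2L, a domain with a score of 0.42, where replicate 1 had no call and 90.1% of the domain was called in neither. The domain at 10379836 to 10391808 on 3L, with a score of 0.37, was likewise empty in replicate 1 and was covered to 12.04% in replicate 2. All of these had 3 or 4 short pieces over 10309 to 15243 bp.

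The most divided members were wide for their class and poorly covered. The domain at 18947050 to 18981431 on 3L had 13 pieces over 34382 bp, a score of 0.33, and 14.2% called in replicate 1 and 41.5% in replicate 2. The domain at 1820260 to 1856545 on 2L had 12 pieces, with 7.74% called in replicate 1 and 46.4% in replicate 2. Only 7 of the 237 members with 5 or more pieces reached 50% in both replicates, against 41 of the 208 with 2 to 4 pieces and 25 of the 26 in a single piece. The number of pieces grew with width, at a rho of 0.62 over the 471 members. The widest members of each arm were accordingly of many pieces: 11 over 38505 bp at 7744153 to 7782657 on 2L, 9 over 39580 bp at 3995041 to 4034620 on 3L, and 11 over 39925 bp at 15999005 to 16038929 on 3R.

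Members at the wide end of the range were nonetheless seldom without a call in replicate 1. No call in replicate 1 was found for 93 of 276 members under 20000 bp, 23 of 108 from 20000 to under 30000 bp and 5 of 87 from 30000 bp. Coverage of at least 50% in both replicates was found in 35, 17 and 21 members of these classes, or 12.7%, 15.7% and 24.1%. A wider domain has more bases that a call can touch, so a missing call is not independent of width. Small domains on 2L, 3L and 3R had no call in replicate 1 in 82.4%, 85.3% and 81.6% of cases. For wide domains it was 2.47%, 0% and 1.02%, so the trend with width was not particular to the members. The widest of the 5 untouched members of 30000 bp or more lay at 7262117 to 7300392 on 3L, with 10 pieces over 38276 bp and 43.5% called in replicate 2.

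Some domains were called in replicate 2 alone and others mainly in replicate 1. The largest excess of replicate 2 was at 1604848 to 1616012 on 3L, with no call in replicate 1 and 92.0% in replicate 2. The domains at 8859084 to 8873889 and 20723496 to 20738153 on 3R were also without a call in replicate 1, and replicate 2 covered 85.5% and 85.3% of them. The 121 members without a call in replicate 1 had a median coverage of 51.7% in replicate 2, and their scores in replicate 2 had a median of 0.66. For the 350 members that replicate 1 touched, the median score in replicate 2 was 0.71, so the missed domains were only a little lower in the other list.

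The largest excess of replicate 1 was at 21323948 to 21341149 on 2L, with 83.7% called in replicate 1 and 23.9% in replicate 2. The domain at 15795869 to 15819450 on 2L had 70.4% called in replicate 1 and 16.6% in replicate 2, and that at 9508227 to 9527908 on 3L had 77.4% and 33.5%. Replicate 1, the shorter list, was higher in 63 members in all, and 20 of the 27 in which it was higher by 10 points or more had a score under 1.

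The edges of the domains were placed alike in replicate 2 and further inside in replicate 1. For the 700 edges of the 350 members called there, the outermost call of replicate 1 stood at a median of -2833.5 bp, where negative values are inside the domain, and 28.7% of edges were matched within 500 bp. For the 942 edges in replicate 2 the median was -21.5 bp and 67.4% were matched within 500 bp. In the 38 members with a score of 1 or more the replicates were close to one another, with 77.6% of 76 edges matched in replicate 1 and 76.3% in replicate 2. In the other members 22.8% of 624 edges were matched in replicate 1 and 66.6% of 866 in replicate 2.

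Along the scaled domain, replicate 2 was called more often at the ends than in the middle. At the first and last twentieth of the domain 71.3% and 70.7% of members were called in replicate 2, and between 50.1% and 55.2% in the 14 bins from the fourth to the seventeenth. Replicate 1 ran nearly flat, from 20.8% to 30.4% over the 20 bins. Calls were read at the centre of each bin, and the whole-series list stands at 100% in the outer bins because a mid-sized domain begins and ends with a region long enough to reach there. The ends were set by that list, which shares its libraries with replicate 2, so the higher calls of replicate 2 there are not independent of the choice of edges. In wide domains replicate 1 was called least at the ends.

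**Figure D3:**
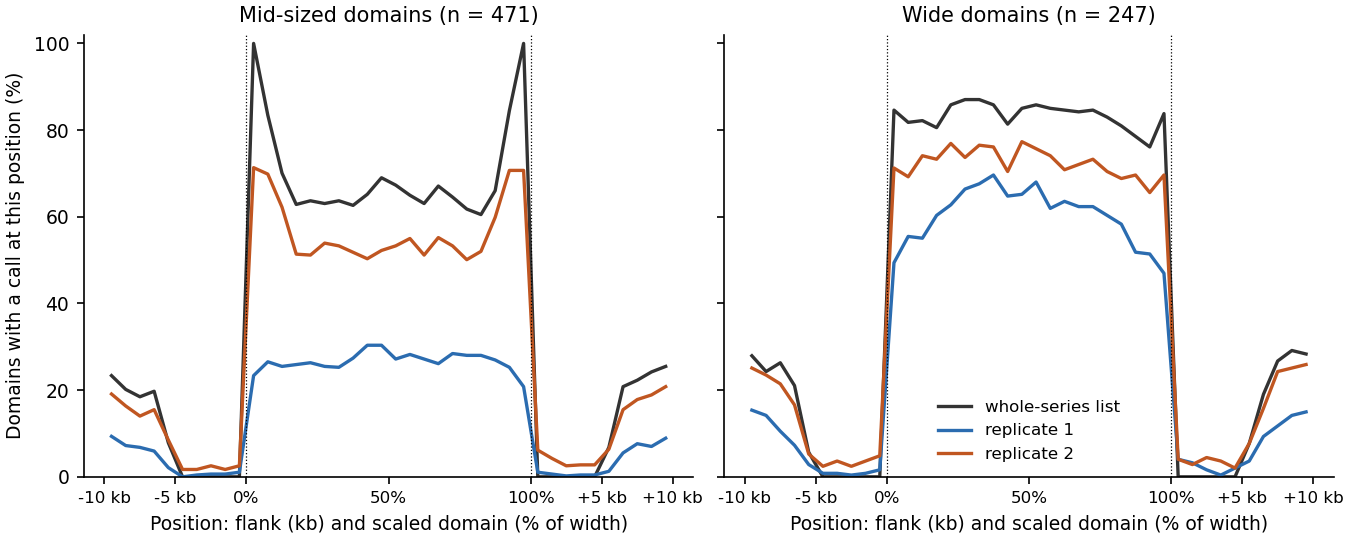
Share of domains with a call (y axis, percent) along the flanks of 10 kb and the scaled width of the domain (x axis), for the 471 mid-sized domains and the 247 wide domains, with 1 line per list. In mid-sized domains replicate 2 peaks at both ends, near 71%, while replicate 1 stays between 20.8% and 30.4%.

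Joining the calls of each replicate by the same rule showed how far the size class itself held. In replicate 1 the widest joined domain touching a member was mid-sized for 125 members, small for 223, wide for 2 and missing for 121. In replicate 2 it was mid-sized for 332, small for 125 and wide for 14. The class was mid-sized in both lists for 106 members, or 22.5%, and in neither for 120, or 25.5%. Among the 38 members with a score of 1 or more it was mid-sized in both lists for 36, and among the other 433 for 70. A member was split over 2 or more joined domains in replicate 1 in 75 cases and in replicate 2 in 137.

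The other direction gave a different picture in each list. Of the 280 mid-sized domains on these arms in replicate 1's own list, the whole-series list placed 126 in mid-sized domains, 152 in wide ones and 2 in small ones. Of the 510 in replicate 2's list it placed 338 in mid-sized domains, 141 in wide, 30 in small and 1 in none. A mid-sized domain of replicate 1 was therefore more often a part of a wide domain of the series than a mid-sized domain of it. The 2 members that were wide in replicate 1 lay at 22091158 to 22110483 on 2L and 18438606 to 18451776 on 3L, 5594 and 5488 bp from a wide domain of the series.

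Members with high and low scores changed class unequally under shorter joining and more alike under longer joining. With gaps under 1000 bp joined, 37 of the 38 members with a score of 1 or more still lay in a mid-sized domain, against 139 of the 433 others. With gaps under 10000 bp joined, 21 of the 38, or 55.3%, and 206 of the 433, or 47.6%, stayed mid-sized, and the remainder, 17 and 227, became part of wide domains.

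Mid-sized domains lay at all distances from wide ones. The median distance to the nearest wide domain was 69016 bp, with quartiles of 22444 and 171985 bp. Within 10000 bp of a wide domain lay 68 members, or 14.4%, and 200 lay within 50000 bp, or 42.5%. At 100000 bp or more lay 186, or 39.5%, and 18 of these were at 500000 bp or more. Small domains lay farther off, at a median of 94595 bp. The rule sets a lower bound of 5000 bp on these distances, since a closer domain would have been joined.

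The nearest to a wide domain was the member at 17183715 to 17196372 on 2L, 5044 bp away, with a score of 0.39, and 43.5% called in replicate 1 and 26.8% in replicate 2. The domains at 3624461 to 3647543 and 10144156 to 10155341 on 2L were each 5053 bp away, with scores of 0.58 and 0.64. At the other extreme, the 3 farthest were all on 3L near the centromere, at 24457633 to 24469474, 24302978 to 24317315 and 23798817 to 23816815, at 1751, 1596 and 1092 kb. Their scores were 0.66, 0.44 and 0.48, and replicate 1 touched only the second, by 9.36%. Replicate 2 covered 30.8%, 26.6% and 43.6% of them.

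Members close to a wide domain were somewhat better covered in replicate 1. The median score was 0.53 under 10000 bp, 0.50 from 10000 to under 50000 bp, and 0.46 in both classes beyond. Median coverage in replicate 1 was 34.5%, 19.2%, 12.4% and 12.6% over the 4 classes of rising distance. In replicate 2 it was 59.8%, 55.5%, 51.9% and 55.9%. No call in replicate 1 was found for 8 of 68, 25 of 132, 27 of 85 and 61 of 186 members. Their share was 11.8% in the nearest class and 32.8% in the farthest. The same shares over all joined domains or small domains are not set beside these, so the gradient may not be particular to the members. Across the 471 members distance had a Spearman rho of -0.17 with the score and -0.20 with coverage in replicate 1, for neighbouring domains of the same lists.

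High scores did not keep to the neighbourhood of wide domains. The 38 members with a score of 1 or more lay at a median of 63894 bp from one, against 69108 bp in the rest, and 15 of the 38 were 100000 bp or more away. The farthest of them, at 164363 to 181954 on 3R, was 465262 bp from a wide domain, with a score of 1.33, and 93.8% called in replicate 1 and 88.3% in replicate 2. The share of high scores was 10.3% under 10000 bp and 8.06% at 100000 bp or more.

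**Figure D4:**
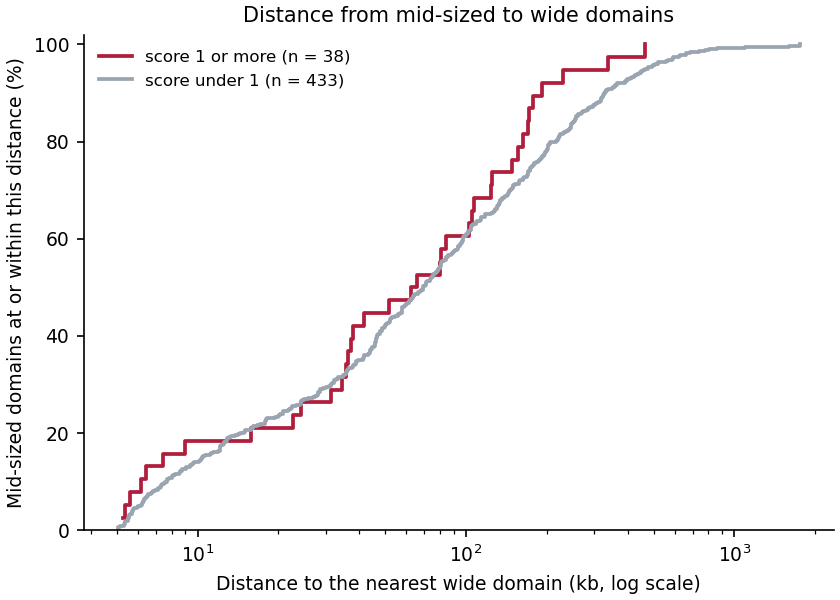
Cumulative share of mid-sized domains (y axis, percent) at or within a given distance from the nearest wide domain (x axis, kb, log scale), for the 38 members with a score of 1 or more and the 433 others. The curves run close together up to about 100 kb, and the longest distances belong to members with a score under 1.

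Most members had some other joined domain close by. The gap to the nearest domain of any size had a median of 7647 bp and was under 10000 bp for 325 members, or 69.0%. On 2L, 3L and 3R that share was 64.0%, 67.8% and 73.4%, against 60.4%, 58.4% and 65.8% of all joined domains. For wide domains it was 67.9%, 63.2% and 68.4%, so close neighbours were not particular to the members. The nearest domain was small for 227 members, mid-sized for 169 and wide for 75. The most isolated member lay at 5877357 to 5902718 on 3R, 101296 bp from any other domain, with a score of 1.40, and 95.2% called in replicate 1 and 82.6% in replicate 2.

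Among high-score members a few lay side by side. The domains at 4094999 to 4127223 and 4134423 to 4165777 on 3R were 7199 bp apart and had scores of 1.92 and 1.42. The domains at 13371750 to 13402147 and 13407470 to 13437857 on 3R were 5322 bp apart, with scores of 2.10 and 1.77. A slightly longer joining distance would have made each pair a wide domain, of 70779 and 66108 bp.

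Mid-sized domains were spread over the whole of each arm. With each arm cut into 3 equal parts, 154 members lay nearest the centromere, 157 in the middle and 160 nearest the telomere, or 32.7%, 33.3% and 34.0%. Each of the 74 full windows of 1 Mb, counted from the centromere end of the arm, held at least 1 member, with a median of 6 and a highest count of 13. That count was reached in 2 windows of 3L, at 9 to 10 Mb and at 23 to 24 Mb from its centromere end, so that the second of these lies near the telomere. Over the 74 windows the count of members had a Spearman rho of -0.12 with the count of wide domains and -0.053 with that of small ones, where a wide domain leaves less room for others.

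The arm end beside the centromere was not without them. Within 1 Mb of it lay 10 members, and within 2 Mb lay 24. The member nearest the centromere was at 22483502 to 22495726 on 2L, at 24457633 to 24469474 on 3L and at 164363 to 181954 on 3R. Those on 2L and 3L had no call in replicate 1, while the member on 3R was the high-score domain with 93.8% called in replicate 1. Nearest the telomere were the members at 30263 to 40323 on 2L, 278151 to 291282 on 3L and 27803757 to 27816768 on 3R, which had no call in replicate 1 and were covered to 69.7%, 65.0% and 29.5% in replicate 2.

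Coverage varied along the arms in each replicate in its own way. Median coverage in replicate 1 was 20.9% in the part of each arm nearest the centromere, 13.3% in the middle and 17.7% nearest the telomere. In replicate 2 the medians were 51.7%, 52.1% and 62.5%. The members without a call in replicate 1 numbered 25 of 154, 47 of 157 and 49 of 160. Toward the telomere replicate 2 thus covered more, while fewer members were touched in replicate 1 than near the centromere. The arms were not alike in this. Replicate 1 medians nearest the centromere and the telomere were 24.1% and 24.4% on 2L, 13.4% and 9.65% on 3L. On 3R they were 26.5% and 17.6%. The same counts over all joined domains are not set beside these, so the pattern may not be particular to the members.

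High-score members were sparse and irregular along the arms. The 38 fell as 12 on 2L, 7 on 3L and 19 on 3R. Of the 74 full windows, 44 held none, 7 held 2 or more and the highest count was 3, at 4 to 5 Mb from the centromere end of 3R. On 3R the one nearest the telomere lay at 20901848 to 20923417, at 74.9% of the arm's length from the centromere. On 2L they reached from 9.72% to 95.7% of the arm's length, counted from the centromere.

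**Figure D5:**
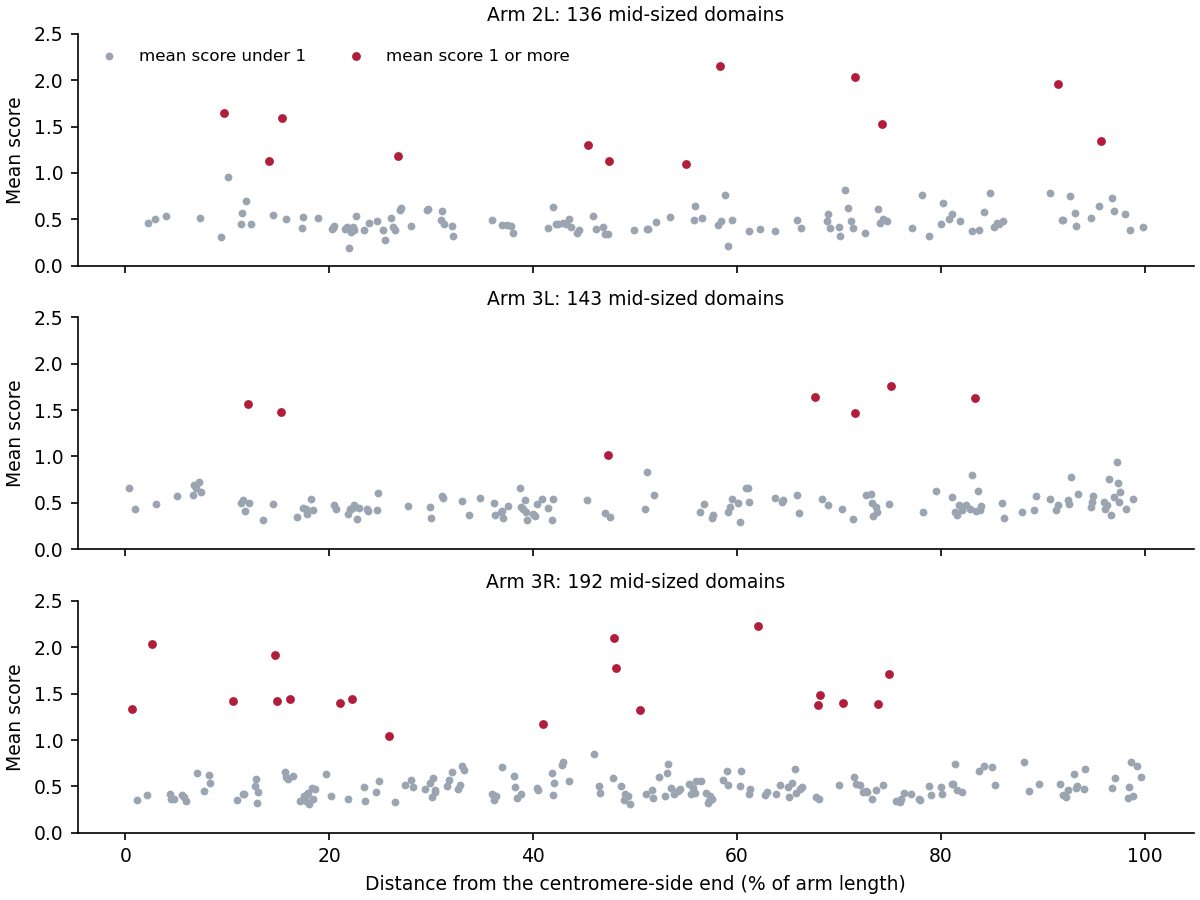
Score of each mid-sized domain (y axis, length-weighted mean in the whole-series list) against its distance from the centromere end of the arm (x axis, percent of arm length), for 2L, 3L and 3R. Most members lie in a band under 0.6 along the whole arm, and the 38 with a score of 1 or more stand above it, 12 on 2L, 7 on 3L and 19 on 3R.

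The arms differed little in the make-up of their members and more in coverage. Arm 2L held 136, 3L held 143 and 3R held 192, or 5.91, 5.83 and 6.88 per Mb. Their spans took up 12.1%, 11.2% and 14.3% of the arm. Median scores were 0.48 on 2L, 0.48 on 3L and 0.49 on 3R, and the median number of pieces was 5, 4 and 5.

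Replicate 1 touched 113 of 136 members on 2L, or 83.1%, 97 of 143 on 3L, or 67.8%, and 140 of 192 on 3R, or 72.9%. Replicate 2 covered at least 50% of 49.3% of members on 2L, 56.6% on 3L and 67.2% on 3R. Replicate 1 covered at least 50% of 19.1%, 15.4% and 20.3% of members on 2L, 3L and 3R, so by that measure 3R had the highest share in both replicates. All joined domains, which include the members, ranked the arms alike. For them the replicate 1 shares at that coverage were 20.6%, 15.8% and 21.5% on 2L, 3L and 3R. Their order was also the same for that coverage in replicate 2 and for touch in replicate 1. These arm rankings were thus not particular to mid-sized domains. Distances to a wide domain were shortest on 2L, with a median of 52991 bp, and longest on 3L, with 95695 bp, against 64949.5 bp on 3R.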

How the data were processed

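The files held enriched regions called in 2 H3K27me3 ChIP libraries and in the whole series, on FlyBase release 5, per the file headers. Per the submitters' processing notes, the aligner was Bowtie 0.12.7. For the caller, its threshold and the making of the whole-series list, nothing is given in the sources used here. The authors deposited a score, of unstated scale, for each region. Joining, coverage, edges, distances and windows were computed from these regions with Python 3.11.15, numpy 2.4.6, pandas 2.3.3, scipy 1.17.1 and matplotlib 3.10.9. The code for width, pieces, coverage, distance and place was tested on simulated data, 1653 planted domains, with 0 values wrong. The planted domains had fewer pieces than many members, and edges, windows and scores were not part of that test. 1 start in exponent form was read as the number written, and 1 depleted region of replicate 2 was left out. The members, lists and classes were chosen with earlier results of these data known. Regions were named by rule in place of genes: extremes of width, score, coverage, pieces, distance and arm position, and the neighbours of each width limit. Others were chosen after their values were seen. No test was run, since an exact sign-flip test of 2 libraries cannot give a p below 0.5. The exact Clopper-Pearson intervals (95%) cover counting error only and treat neighbouring domains as independent. Alternatives changed the joining distance, the score and width of regions, the coverage limit, the wide class and the replicates used.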

Additional observations from a re-analysis of the deposited data

How the results depend on the processing

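Of 66 values recomputed under another setting, 27 stayed within the limits set for them and 39 fell outside. The limits were 1 SD between replicates, the 95% interval of a share or of a median, or 1.5 times a number of domains. For the 2 coverage medians this SD rests on 2 values. Its limits were wide, from -11.1% to 44.6% around 16.8% in replicate 1. Replicate 1 medians of 40.8% with gaps under 2000 bp and 42.8% with regions of at least 2000 bp thus counted as within. So did a replicate 2 median of 80.2% with gaps under 1000 bp. Only the difference between replicates could change direction, and it stayed negative under each setting that recomputed it. Alternatives that measure something else, such as the share within 1 Mb, were held to the limits of the main value. Joining gaps under 1000 bp gave 59.3% coverage in replicate 1, a difference between replicates of -15.3 points, 55.3% of domains covered by at least 50% in both, 3 pieces, a score of 0.60 and a distance of 142506 bp. Gaps under 2000 bp gave -24.2 points, 36.0%, 0.54 and 100168 bp, and gaps under 10000 bp gave 9.24%, 0.46, 55783 bp and 17.5% of the same size class in both lists. Regions at or above the median score gave 56.8% coverage in replicate 1, -16.0 points, 52.9%, 3 pieces, 0.64, 102744 bp, 27.1% in the part of each arm nearest the centromere and 35.7% of the same class. Regions of at least 2000 bp gave -25.9 points, 35.9%, 3 pieces, 0.56, 83622.5 bp and 37.9%. Coverage of 80% in both was found for 6.79% and a touch for 74.3%. The distance was 81316 bp to wide domains from 50000 bp and 131952 bp between midpoints. The share near the centromere was 2.12% within 1 Mb and 5.10% within 2 Mb. Over called pieces alone the difference was -47.9 points. The highest score of a piece had a median of 0.61. The members of the whole-series list were also judged by 1 replicate at a time. The share covered by at least 50% was then 18.5% by replicate 1 and 58.8% by replicate 2. The share of the same class was 26.5% and 70.5%. These members still came from a list that holds both libraries. The number of mid-sized domains in each replicate's own list was 280 in replicate 1 and 510 in replicate 2. Narrower or stricter definitions drop sparse domains by construction. No paired analysis was possible because no result comes from a test and only the ChIP libraries have lists. Read depth is unknown, and a domain without a call may hold signal below the authors' threshold.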

Other observations

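The region of replicate 2 that the authors marked as depleted, 1737 bp at 4982140 to 4983876 on 3R with a score of -0.05, lay inside a mid-sized domain at 4958406 to 4983919. That domain had 6 pieces over 25514 bp, a score of 0.42, and 61.6% called in replicate 1 and 21.4% in replicate 2. The same stretch lay inside an enriched region of replicate 1, at 4977125 to 4983889 with a score of 0.72, and inside a region of the whole-series list with a score of 0.51. In replicate 2 the nearest enriched region before it ended at 4981889. The site was chosen after its values were seen, and no cause was tested.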
